A study of Mus musculus with 8 samples.

Results

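Zfp618, Cpxm2, Pm20d1 and Gm10288 are 4 of the 46983 genes in the count table of this series, and 4 of the 15638 with enough reads to be tested. They were chosen by their measured levels in these libraries, which were much lower in mutant than in control tail epidermis with little spread between mice. That choice used the same contrast that is described here, so their differences are given as a description with no test, and the choice had no numeric threshold. All 8 mice were 8 weeks old and carried K14-Cre, a Cre recombinase transgene driven by the keratin 14 promoter of basal keratinocytes, with 1 floxed allele of Ppp1r8, the gene of the phosphatase regulator NIPP1. In the 4 CTR mice (K14-Cre/+ Ppp1r8 fl/+) the other allele was wild type, so that Cre could act on 1 of their 2 copies as well. In the 4 KO mice (K14-Cre/+ Ppp1r8 fl/-), called SKO in the series text, the other allele was null. The alleles are given for every mouse as the transgene Tg(KRT14-cre)1Amc/J with the Ppp1r8 alleles Ppp1r8tm1Ave and Ppp1r8tm1.1Itl, and neither sex nor litter is given.

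The set holds 3 protein-coding genes with unrelated products and 1 pseudogene. Zfp618 encodes a zinc finger protein that binds 5-hydroxymethylcytosine, an oxidised form of methylated DNA cytosine that TET enzymes make, and that is known as a partner of the ubiquitin ligase UHRF2. Cpxm2 encodes a secreted protein of the M14 carboxypeptidase family with a discoidin domain, which is thought to have lost peptidase activity and to act outside the cell by binding. Pm20d1 encodes a secreted enzyme of the M20 peptidase family that joins fatty acids to amino acids, and splits them again, and its N-acyl amino acid products can uncouple mitochondrial respiration. Gm10288 is annotated as a processed pseudogene, a copy of a spliced messenger RNA inserted back into the genome. Its closest protein-coding match by sequence was Rpl11, which encodes a protein of the large ribosomal subunit.

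Library totals ranged from 16696212 to 21571935 counts. Ppp1r8 itself (chromosome 4, 132826929 to 132843169, GRCm38) was at 37.9 ± 3.58 CPM (counts scaled to the normalised library size) in CTR and 36.4 ± 8.00 CPM in KO (SD, n = 4 each), and since the deleted part is not given, this gene-level count does not check the labels. The epidermal origin was checked with 12 keratinocyte markers, all of them tested, whose summed level was 48583 to 53659 CPM in CTR and 70998 to 88904 CPM in KO. Of these 12, 2 rose and 3 fell (median log2 fold change -0.13): Krt10 rose from 15650 ± 611 to 31131 ± 3704 CPM and Krt1 from 2488 ± 430 to 18366 ± 4854 CPM, while Itgb4, Itga6 and Krt15 fell. Of 13 tested markers of hair shaft and root sheath, 10 fell and 0 rose, with sums of 8017 to 14289 CPM in CTR and 408 to 4486 CPM in KO. Marker sums of fibroblasts were 102 to 123 CPM in CTR and 133 to 166 CPM in KO. Of 8 tested fibroblast markers, 2 were higher and 2 lower. For adipocyte markers the sums were 71.6 to 92.1 and 44.6 to 70.0 CPM, with 0 of 3 higher and 1 lower. The lower adipocyte sum came largely from Fabp4, with means of 19.3 CPM in CTR and 2.86 CPM in KO. Plin4 (43.1 and 40.4 CPM) and Lipe (17.7 and 17.3 CPM) differed little. Sums of dermal papilla markers were 25.0 to 57.6 CPM in CTR and 10.7 to 13.0 CPM in KO (0 of 4 rose, 2 fell). That difference came largely from Hhip, with means of 31.1 CPM in CTR and 1.36 CPM in KO. Prom1 also fell, at a low level (1.21 and 0.463 CPM). Wif1 (4.40 and 5.64 CPM) and Enpp2 (1.87 and 3.46 CPM) had higher means in KO and did not pass. Of the markers of other cells, 6 of 8 tested for Langerhans and dendritic cells rose and 0 fell (sums 266 to 346 and 375 to 526 CPM), as did 3 of 3 for T cells (7.48 to 11.6 and 13.6 to 25.4 CPM). For melanocytes 4 of 8 rose and 1 fell, for sebocytes 3 of 10 rose and 0 fell, for outer root sheath and bulge 3 of 12 rose and 2 fell, and for Schwann cells and neurons 0 of 6 rose and 1 fell. No tested marker of endothelium (4), muscle (2) or the list of macrophages, neutrophils and mast cells (4) passed, and Myl1 and Cma1 were at 0 in every library. In a whole tissue sheet, fewer cells of a type and less RNA per cell cannot be told apart. The part of these cell type markers in the values below was not tested. Of all tested genes, 23.7% were called by edgeR's quasi-likelihood test at an adjusted p below 0.05, 11.5% higher and 12.2% lower in KO. The groups did not overlap, with KO lower, for 13.3%, and 4.02% were called and at least 2-fold lower.

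Zfp618 (ENSMUSG00000028358.15, chromosome 4, 62965573 to 63139708, plus strand, GRCm38) lies on the chromosome of Ppp1r8, 69.7 Mb away from it, and no other annotated gene overlaps it. It had 30.1, 36.2, 29.4 and 27.6 CPM in CTR 1 to 4, from 475 to 753 counts. In KO 1 to 4 it had 5.66, 6.62, 7.91 and 6.41 CPM, from 108 to 158 counts. All KO libraries were therefore far below all CTR libraries, and the lowest CTR value was 3.49 times the highest KO value. The means were 30.8 ± 3.75 and 6.65 ± 0.937 CPM, 4.63-fold lower in KO (log2 fold change -2.21, SE 0.13). Within KO, the order of libraries from KO 1 over KO 4 and KO 2 to KO 3 was also the order of the summed hair shaft markers (408, 1488, 3108 and 4486 CPM). Within CTR the orders differed, from CTR 4 over CTR 3 and CTR 1 to CTR 2 for Zfp618 and from CTR 1 over CTR 4 and CTR 2 to CTR 3 for the markers (8017, 10403, 14112 and 14289 CPM). The marker sum covered a far wider range across the 4 KO libraries than Zfp618. For Zfp618, KO 4 and KO 2 were close together (121 and 131 counts). Cpxm2, Pm20d1 and Gm10288 each had another order of libraries within KO.

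Cpxm2 (ENSMUSG00000030862.12, chromosome 7, 132032687 to 132154739, minus strand) had the lowest log2 fold change of the 4 genes, except with Xist as a further term (-2.37, against -3.03 for Gm10288) and without KO 1 (-2.50 against -2.58). In CPM its difference was the smallest of the 4. Its CTR libraries were close together, at 20.3, 17.9, 18.2 and 18.4 CPM (294 to 396 counts). Its KO libraries were at 2.25, 2.93, 3.81 and 3.12 CPM (43 to 76 counts). The lowest CTR library had 4.70 times the level of the highest KO library. The coefficient of variation was 5.80% in CTR, the smallest of the 8 values of the 4 genes, and 21.1% in KO, the largest. The means of 18.7 ± 1.08 and 3.03 ± 0.638 CPM gave a 6.15-fold lower level in KO (log2 fold change -2.62, SE 0.15). In GENCODE M21, 1 of 27 transcripts of the growth factor receptor gene Fgfr2, on the same strand, runs across Cpxm2. The antisense gene Gm15677 overlaps the start of Cpxm2 and had 0 to 3 counts in every library.

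Pm20d1 (ENSMUSG00000042251.12, chromosome 1, 131797381 to 131821473, plus strand) had the log2 fold change nearest to 0 of the 4. Its level was 41.8, 42.4, 44.5 and 34.4 CPM in CTR (720 to 881 counts). In KO it was 11.1, 10.2, 12.4 and 7.89 CPM (149 to 248 counts). CTR 4 and KO 4 were the lowest of their groups, and the lowest CTR value was still 2.77 times the highest KO value. Means were 40.8 ± 4.43 and 10.4 ± 1.91 CPM, 3.92-fold lower in KO (log2 fold change -1.97, SE 0.14). No annotated gene overlaps Pm20d1. Per kilobase of exon, the 3 protein-coding genes were at similar CTR levels, 3.30 for Zfp618, 4.04 for Cpxm2 and 5.80 for Pm20d1 (CPM per kb). The median of all tested genes on that scale was 5.66, so none of the 3 was an abundant transcript of control epidermis.

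**Figure D1:**
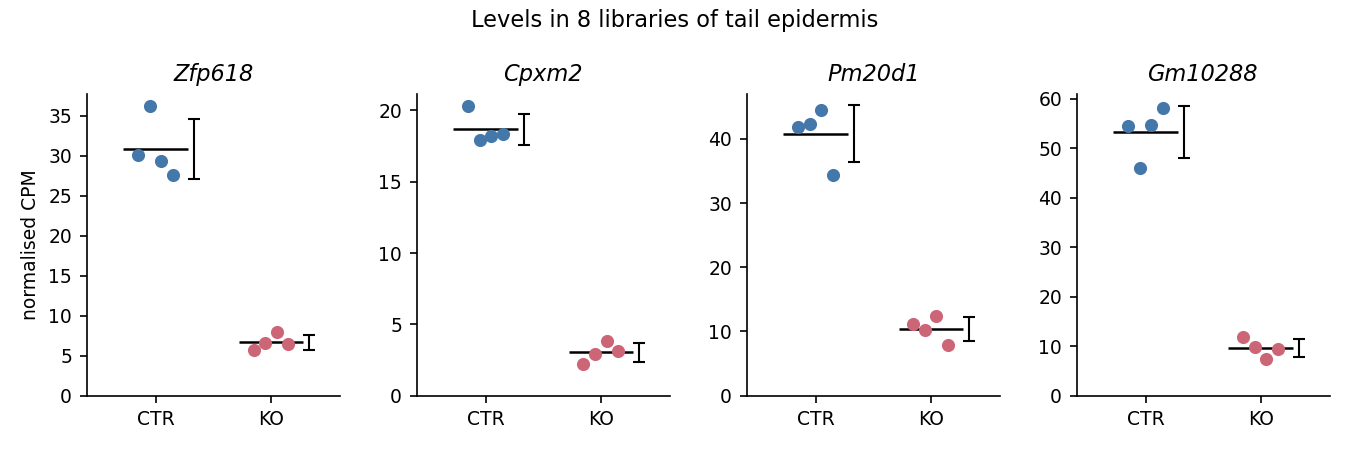
Normalised CPM (y axes, each starting at 0) of the 4 genes in 4 CTR and 4 KO libraries (points), with the group mean (line) and SD (bar). In each panel all KO points lie below all CTR points, for example 5.66 to 7.91 against 27.6 to 36.2 CPM for Zfp618.

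Gm10288 (ENSMUSG00000070343.3, chromosome 3, 146838811 to 146839347, minus strand) is a single block of 537 bases. It had 54.5, 46.0, 54.8 and 58.1 CPM in CTR (885 to 1235 counts). In KO it had 11.9, 9.86, 7.36 and 9.48 CPM (147 to 227 counts). The order within KO ran opposite to that of Zfp618 and Cpxm2 at its ends: KO 1 was the highest library and KO 3 the lowest. Means were 53.3 ± 5.20 and 9.65 ± 1.86 CPM, 5.53-fold lower in KO (log2 fold change -2.47, SE 0.14), with a gap of 3.86 times between the groups.

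The transcript sequences show how little separates Gm10288 from its parent. Aligned over all 537 bases without a gap, Gm10288 and the coding part of Rpl11 differed at 1 base, G86A (Rpl11 base first, positions counted from 1 at the 5′ end of the Gm10288 transcript). The stretch around that base is shown for Gm10288, for Rpl11 and for another copy, Gm7589, with the base at position 86 in capitals (positions 56 to 116, 5′ to 3′, from GENCODE M21).
Gm10288: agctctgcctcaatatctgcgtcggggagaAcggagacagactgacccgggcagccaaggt
Rpl11: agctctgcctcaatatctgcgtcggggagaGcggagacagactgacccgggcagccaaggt
Gm7589: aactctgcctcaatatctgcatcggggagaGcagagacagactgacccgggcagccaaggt
Of the 7 sequences compared at this position, which leave out Gm10036 and a copy that does not align there, 6 had G and Gm10288 had A. Gm10036, described below, differs from Rpl11 at 4 of 534 bases and from Gm10288 at 5, which places the Rpl11 base at position 86. Reads in this series were 75 bases long. Of the 463 windows of 75 bases in Gm10288, 388 occurred unchanged in an annotated transcript of another gene, and the 75 that did not were the ones that hold position 86. Within these transcript sequences, a read that fits Gm10288 better than Rpl11 therefore has to cover that 1 base. Only annotated transcripts were searched, not the whole genome. Bases beside Gm10288 and the placing of spliced Rpl11 reads on the genome were not part of this search.

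Rpl11 (ENSMUSG00000059291.15, chromosome 4, 136028265 to 136053428, minus strand) lies 3.19 Mb from Ppp1r8. Its own counts were low and alike in both groups. It had 5.89, 4.76, 6.43 and 5.98 CPM in CTR and 6.40, 5.21, 5.11 and 5.77 CPM in KO. The log2 fold change was -0.04 (SE 0.14, adjusted p = 0.879), so no difference was detectable. This level was the 19th lowest of 90 tested protein-coding genes whose symbol starts with Rpl or Rps and a number. That list was drawn up after the values had been seen. The median of these 90 genes was 43.7 CPM and 23 of them were under 10 CPM in CTR. Such symbols are also given to genes for other proteins, among them kinases, so this is not a rank among ribosomal protein genes alone. Of the 759 windows of 75 bases in the longest-matching Rpl11 transcript, 463 occurred unchanged in a transcript of another gene.

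The other abundant copy of Rpl11 moved the opposite way. Gm10036, a processed pseudogene on chromosome 18 that differs from Rpl11 at 4 of 534 bases and from Gm10288 at 5, had 37.1, 32.1, 39.2 and 36.5 CPM in CTR. In KO it had 82.0, 68.8, 58.1 and 64.8 CPM, so every KO library was above every CTR library. It rose by 0.92 on a log2 scale (SE 0.11, adjusted p = 0.000789), with means of 36.2 ± 2.99 and 68.4 ± 10.1 CPM. The remaining 6 near copies (at least 80% identity over at least 80% of the length) had 7 to 32 counts each over all 8 libraries. Gm10288 made up 59.5%, 58.9%, 58.3% and 61.4% of the summed CPM of Gm10288 and Gm10036 in CTR 1 to 4, and 12.7%, 12.5%, 11.2% and 12.8% in KO 1 to 4. The shares within a group were thus closer together than the levels of either gene. The sum of the 2 pseudogenes was 89.6 ± 7.79 CPM in CTR and 78.1 ± 11.9 CPM in KO, and the groups overlapped (78.0 to 94.6 and 65.5 to 93.9 CPM). With Rpl11 and all near copies added, the sum was 95.9 ± 8.67 and 84.6 ± 12.4 CPM. From which of these loci the reads came was not tested, and how reads matching several loci were counted is not given in the sources used here.

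**Figure D2:**
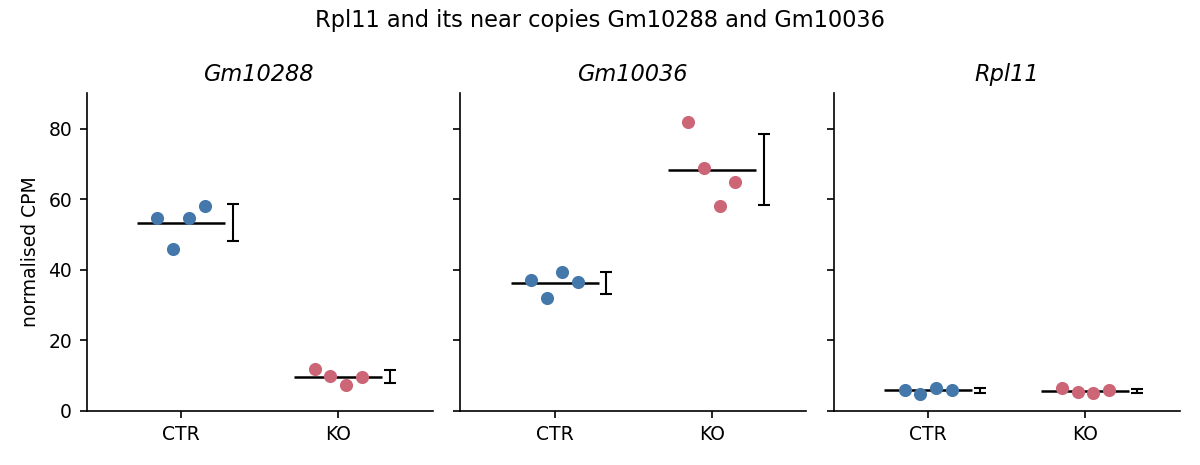
Normalised CPM (common y axis from 0) of Gm10288, Gm10036 and Rpl11 in 4 CTR and 4 KO libraries (points), with group mean (line) and SD (bar). Gm10288 is lower in KO (53.3 to 9.65 CPM), Gm10036 is higher (36.2 to 68.4 CPM) and Rpl11 lies between 4.76 and 6.43 CPM in all 8 libraries.

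Ranked by log2 fold change, Cpxm2 was 128th, Gm10288 148th, Zfp618 174th and Pm20d1 230th from the lowest of 15638 genes. Among the 628 genes called and at least 2-fold lower, the pooled SD within groups on the log2 scale ranked 11th smallest for Zfp618 (0.185), 28th for Gm10288 (0.226), 30th for Cpxm2 (0.228) and 31st for Pm20d1 (0.229). The median of the 628 was 0.610. Their median ratio of lowest CTR to highest KO library was 1.57, against 2.77 to 4.70 for the 4 genes. By that ratio, largest first, Cpxm2 ranked 27th of the 628, Gm10288 35th, Zfp618 41st and Pm20d1 86th. These ranks, which are over different sets of genes, come from the values that chose the genes. With the level of Xist, the RNA of the inactive X chromosome, as a further term in the fit, the log2 fold changes were -1.72 for Zfp618, -2.37 for Cpxm2, -1.57 for Pm20d1 and -3.03 for Gm10288. Xist was at 792 ± 153 CPM in CTR and 419 ± 114 CPM in KO. It was well above 0 in every library, at 647 to 994 CPM in CTR and 330 to 574 CPM in KO.

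**Figure D3:**
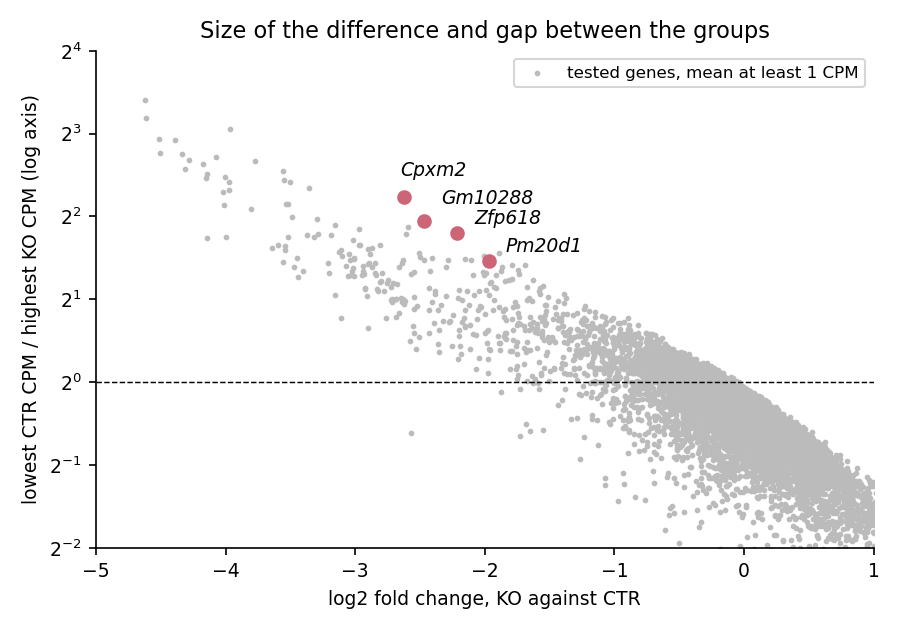
Log2 fold change of KO against CTR (x axis) and the ratio of the lowest CTR to the highest KO library (y axis, log scale) for tested genes averaging 1 CPM or more (grey). The 4 genes (red, ratios 2.77 to 4.70) lie along the upper edge for their fold change; points above the dashed line are genes whose groups do not overlap, and genes outside the axis limits or with a KO level of 0 in all libraries are not drawn.

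The profiles most like these were looked for among 14414 genes averaging 1 CPM or more, by the root mean square (RMS) difference of centred log2 CPM over the 8 libraries. The measure is a description that a shared group difference dominates. For Zfp618 the nearest were the glutamate receptor gene Grm4 (RMS 0.207), the glypican gene Gpc3 (0.236), the kainate receptor gene Grik4 (0.252), Gm438 (0.252) and the matrix protease gene Adamts14 (0.258). Grm4 (0.212), Grik4 (0.237) and Gpc3 (0.373) also stood among the 5 nearest to Cpxm2, with the membrane glycoprotein gene Gpm6a (0.352) and the synaptotagmin gene Syt7 (0.374). Grm4 was at 2.14 ± 0.275 CPM in CTR and 0.347 ± 0.116 CPM in KO, and Grik4 at 4.38 ± 0.730 and 0.719 ± 0.158 CPM, so these 2 were scarcer transcripts than the 4 genes. Nearest to Pm20d1 were Gm438 (0.216), the RNA-binding protein gene Mex3a (0.228), B4galnt4 (0.237), the creatine synthesis gene Gatm (0.251) and Selenbp2 (0.274). Gm10288 had Myef2 (0.295) as its nearest profile, then Grik4 (0.357), Gpc3 (0.393), Grm4 (0.419) and Hspa12a (0.423). Zfp618 differed from Pm20d1 by 0.225 and from Cpxm2 by 0.252. Gm10288 differed from the other three by 0.372 to 0.403, and the farthest apart were Cpxm2 and Pm20d1 (0.410).

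The promoters of Zfp618 and Cpxm2 are shown, the 2 of the 4 genes that the RefSeq table held (GRCm38.p6). Capitals mark GGGCGG, the GC box bound by SP family factors, on either strand, in the 250 bases before the start.
Zfp618, chr4:62965317-62965566, plus strand: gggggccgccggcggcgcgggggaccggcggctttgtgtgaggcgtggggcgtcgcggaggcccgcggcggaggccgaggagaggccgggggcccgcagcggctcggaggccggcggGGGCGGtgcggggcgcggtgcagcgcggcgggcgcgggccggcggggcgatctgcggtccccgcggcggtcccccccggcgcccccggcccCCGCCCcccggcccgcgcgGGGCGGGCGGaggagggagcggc
Cpxm2, chr7:132154742-132154991, minus strand: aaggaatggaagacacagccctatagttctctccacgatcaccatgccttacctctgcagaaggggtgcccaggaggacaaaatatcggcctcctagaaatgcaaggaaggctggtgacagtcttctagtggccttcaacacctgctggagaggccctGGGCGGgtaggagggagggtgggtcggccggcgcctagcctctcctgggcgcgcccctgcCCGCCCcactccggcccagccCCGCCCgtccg
The Zfp618 promoter held 4 matches, 2 of them overlapping each other, and the Cpxm2 promoter 3. At least 1 match occurred in 32.7% of the 32851 promoters in the table. Neither promoter held CCAAT (33.8% of promoters, either strand) or TATAAA (12.4%). The Zfp618 promoter had 48 CG dinucleotides, more than 99.8% of promoters, and the Cpxm2 promoter 13, more than 68.5%, against a median of 6. A match is a string of letters and was not tested as a binding site.

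Genes of related function were read from lists that hold 55 tested genes in all, of which 7 rose and 8 fell. Those 27.3% compare with 23.7% of all tested genes, and the median log2 fold change was -0.03. Without CTR 1, 9 were called in place of 15, and with Xist as a further term 0 were. Around Zfp618, 19 genes that read, write or remove modified cytosine were tested, and 1 rose and 4 fell (median -0.07). Tet1, which oxidises methylcytosine, fell, with a log2 fold change of -1.40 (SE 0.35, adjusted p = 0.0170) and means of 2.54 ± 1.01 CPM and 0.960 ± 0.365 CPM. CTR 1 to 4 had 1.74, 3.95, 2.60 and 1.88 CPM against 0.891, 1.42, 1.00 and 0.529 CPM in KO 1 to 4. Dnmt1, the maintenance DNA methyltransferase gene, fell from 108 ± 7.82 to 73.9 ± 1.51 CPM (-0.55, SE 0.07, adjusted p = 0.000929). Its KO libraries lay within 72.5 to 75.8 CPM, all below the CTR range of 99.8 to 116 CPM. Tet2 and Tet3, the other TET enzyme genes, and Smug1, which removes modified bases from DNA, were close to the threshold. Their log2 fold changes were -0.52 (adjusted p = 0.0482), -0.31 (0.0471) and 0.26 (0.0470). Uhrf2, the partner of the Zfp618 protein, was at 29.7 ± 1.06 CPM in CTR and 33.5 ± 5.01 CPM in KO (adjusted p = 0.261). The Tet2 call ended without CTR 1, CTR 2, KO 1, KO 2 or KO 4 (adjusted p = 0.0835 to 0.126), the Tet3 call without CTR 1, CTR 2, CTR 3, KO 1, KO 2 or KO 4 (0.0728 to 0.118), and the Smug1 call without any single library other than KO 2 (0.0773 to 0.109). Another scaling, filter or the robust fit also ended the Tet2 call (adjusted p = 0.0517 to 0.0548), the Tet3 call (0.0532 and 0.0546) and the Smug1 call (0.0692).

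Cpxm1, the closest relative of Cpxm2 by name and family, was lower too. It had 3.94, 4.96, 3.46 and 3.81 CPM in CTR and 1.21, 2.33, 1.75 and 1.48 CPM in KO. It fell with a log2 fold change of -1.25 (SE 0.22, adjusted p = 0.00409), and its groups did not overlap. Of 7 tested genes of this group of M14 carboxypeptidases, which trim basic residues from the ends of peptides or bind matrix, 1 rose and 2 fell (median 0.02). The other fall was that of Cpm, a membrane-bound carboxypeptidase gene. It had 122, 219, 179.8 and 143.7 CPM in CTR and 30.7, 70.4, 109 and 57.1 CPM in KO (log2 fold change -1.31, SE 0.32, adjusted p = 0.0165). KO 1 was its lowest library and KO 3 its highest, as for Cpxm2 and for the hair shaft markers. In the robust fit the Cpm call ended (adjusted p = 0.0568). Cpe, which matures peptide hormones, rose from 102 ± 10.3 to 145 ± 21.1 CPM (adjusted p = 0.0117). Aebp1, another member with a discoidin domain, was at 10.6 ± 1.96 and 8.98 ± 0.853 CPM (adjusted p = 0.246).

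Among 7 tested pancreatic-type and cytosolic carboxypeptidases and their inhibitors, 1 rose and 0 fell (median 0.01). Agbl3, which shortens polyglutamate chains on tubulin, rose from 5.29 ± 0.992 to 12.2 ± 1.08 CPM (adjusted p = 0.000848). The 2 most abundant genes of this list did not pass, with Rarres1 at 152 ± 49.0 and 144 ± 13.5 CPM (adjusted p = 0.798) and Cpa4 at 143.5 ± 7.04 and 175 ± 27.4 CPM (adjusted p = 0.0763). Of 8 tested genes for other discoidin domain proteins, 2 rose and 1 fell (median -0.11). Mfge8, a bridge between dying cells and phagocytes, rose by 0.58 on the log2 scale (adjusted p = 0.00744), and Dcbld2 rose by 0.66 (adjusted p = 0.00111). Nrp1, a receptor for semaphorins and VEGF, fell by 0.87 on the log2 scale (adjusted p = 0.0286). That call ended without CTR 1, CTR 2, CTR 3, KO 1, KO 2 or KO 4 (adjusted p = 0.0617 to 0.0740).

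Of 4 tested relatives of Pm20d1 among M20 peptidases and aminoacylases, 1 rose and 1 fell (median -0.11). Acy1, which removes the acetyl group from N-acetylated amino acids, had 9.94, 8.57, 8.79 and 12.5 CPM in CTR and 6.71, 6.67, 5.66 and 6.41 CPM in KO. It fell with a log2 fold change of -0.65 (SE 0.15, adjusted p = 0.0116). Acy3 rose from 1.57 ± 0.325 to 2.72 ± 0.617 CPM (adjusted p = 0.0320), a call that ended without CTR 1, CTR 3, CTR 4, KO 3 or KO 4 (0.0511 to 0.0868). Pm20d2, the gene closest to Pm20d1 by name, was at 7.88 ± 1.22 and 5.78 ± 1.28 CPM and did not pass (log2 fold change -0.45, SE 0.18, adjusted p = 0.0944). Of 10 tested genes for making or splitting N-acyl lipids and for uncoupling, Naaa, a lysosomal amidase gene, rose from 11.6 ± 1.72 to 20.9 ± 7.57 CPM (adjusted p = 0.0208) and 0 fell. The Naaa call ended without CTR 1 or CTR 4 (0.0519 and 0.0537). Faah, whose product splits fatty acid amides, was at 41.6 ± 3.63 and 44.4 ± 4.92 CPM (adjusted p = 0.507). Slc25a5, an adenine nucleotide carrier gene through which N-acyl amino acids can act, was at 298 ± 20.8 and 312 ± 7.65 CPM (adjusted p = 0.554). Ucp2 was at 199 ± 26.0 and 224 ± 34.0 CPM (adjusted p = 0.361). Ucp1, the uncoupling protein gene of brown fat and a defining marker of that tissue, stood between 0.0471 and 0.25 CPM in all libraries.

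**Figure D4:**
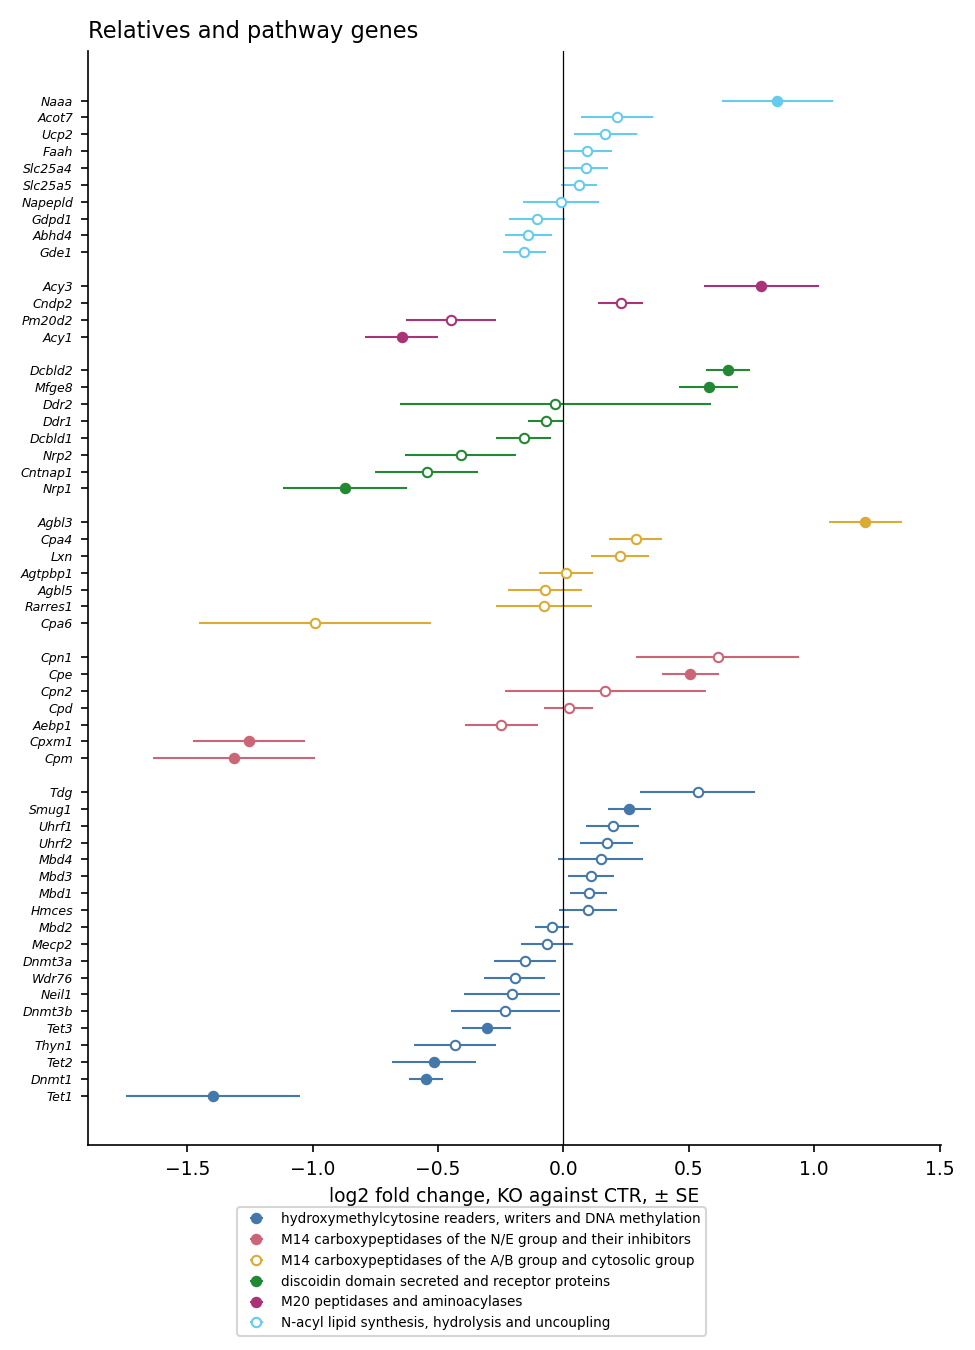
Log2 fold change of KO against CTR (x axis, bars ± SE) of the 55 tested genes in 6 lists (colours) related to Zfp618, Cpxm2 and Pm20d1. Filled points passed the adjusted p threshold of 0.05; Tet1, Cpm and Cpxm1 lie farthest to the left among these and Agbl3 farthest to the right.

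Genes near the 4 loci did not share a direction. Within 500 kb, 42 genes were tested, of which 4 rose and 9 fell, and their median log2 fold change was -0.07. Those 31.0% called compare with 23.7% of all tested genes. Within 250 kb, 6 of 19 were called, and within 1000 kb 19 of 81 (23.5%). With Xist as a further term, Oat alone of the 13 kept its call.

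Next to Zfp618, Ambp, whose product is split into a microglobulin and a protease inhibitor, lies 3.57 kb beyond the 3′ end on the opposite strand and rose. It had 5.94, 8.71, 0.928 and 4.47 CPM in CTR and 17.4, 41.5, 28.9 and 31.1 CPM in KO (log2 fold change 2.54, SE 0.46, adjusted p = 0.00422). Of the 13 tested genes around Zfp618, Whrn, a scaffold protein gene 275 kb away, fell from 13.7 ± 1.47 to 5.96 ± 1.53 CPM (adjusted p = 0.00244). Rgs3, a regulator of G protein signalling and the nearest tested gene on the upstream side, fell from 4.54 ± 0.784 to 2.34 ± 0.721 CPM (adjusted p = 0.0160). The remaining 10 did not pass.

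Of the 5 tested genes around or across Cpxm2, 3 rose and 1 fell. Fgfr2, which overlaps Cpxm2 in the annotation through 1 of its 27 transcripts, fell from 249.2 ± 15.8 CPM to 161.5 ± 13.3 CPM (adjusted p = 0.00110). The neighbour counts include Fgfr2 for that overlap, and where its other transcripts lie was not examined. Chst15, a sulfotransferase gene 81.0 kb upstream, rose by 0.44 on the log2 scale (adjusted p = 0.0438), a call that ended without CTR 1, CTR 3, CTR 4, KO 1, KO 2 or KO 3 (0.0707 to 0.110). Oat, an ornithine aminotransferase gene, had 166, 176, 144 and 160.4 CPM in CTR and 226, 329, 379 and 312 CPM in KO (adjusted p = 0.00195). Lhpp rose from 119.5 ± 11.0 to 166 ± 22.9 CPM (adjusted p = 0.0117). On the downstream side the nearest tested gene, the mitotic checkpoint gene Bub3, was at 54.8 ± 5.59 and 57.0 ± 5.15 CPM (adjusted p = 0.689).

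Of 16 tested genes around Pm20d1, 4 fell and 0 rose, with a median of -0.22. Its neighbours Slc41a1, a magnesium transporter gene 6.02 kb downstream, and Slc26a9, an anion transporter gene 25.9 kb upstream, had log2 fold changes of -0.29 (adjusted p = 0.0486) and 0.03 (adjusted p = 0.882). Ctse, a protease gene, had 7.84, 20.5, 22.3 and 14.5 CPM in CTR and 0.944, 5.31, 6.46 and 1.32 CPM in KO. Its fall (log2 fold change -2.20, SE 0.54, adjusted p = 0.0157) came with a wide spread in both groups, and in the robust fit the call ended (adjusted p = 0.0517). Mfsd4a, a transporter-like gene 201 kb downstream, fell from 18.1 ± 2.84 to 6.07 ± 1.77 CPM (adjusted p = 0.00112). Srgap2 fell by 0.48 on the log2 scale (adjusted p = 0.0379). The Srgap2 call ended without CTR 2, CTR 3, KO 1, KO 2 or KO 4 (0.0700 to 0.101), and the Slc41a1 call without CTR 1, CTR 2, CTR 3, KO 1, KO 2 or KO 4 (0.0647 to 0.136) and under other scalings or no filter (0.0513 to 0.0729).

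Around Gm10288, 2 of 8 tested genes fell and 0 rose, and its direct neighbours did not pass. Ttll7, 13.0 kb upstream, was at 108 ± 8.64 and 95.9 ± 12.0 CPM (adjusted p = 0.212), and the protein kinase A subunit gene Prkacb, 25.8 kb downstream, at 97.7 ± 15.6 and 92.0 ± 10.4 CPM (adjusted p = 0.626). Spata1 and the chitobiase gene Ctbs, which overlap each other more than 300 kb away, fell, with log2 fold changes of -0.82 (adjusted p = 0.00834) and -0.71 (adjusted p = 0.00688).

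**Figure D5:**
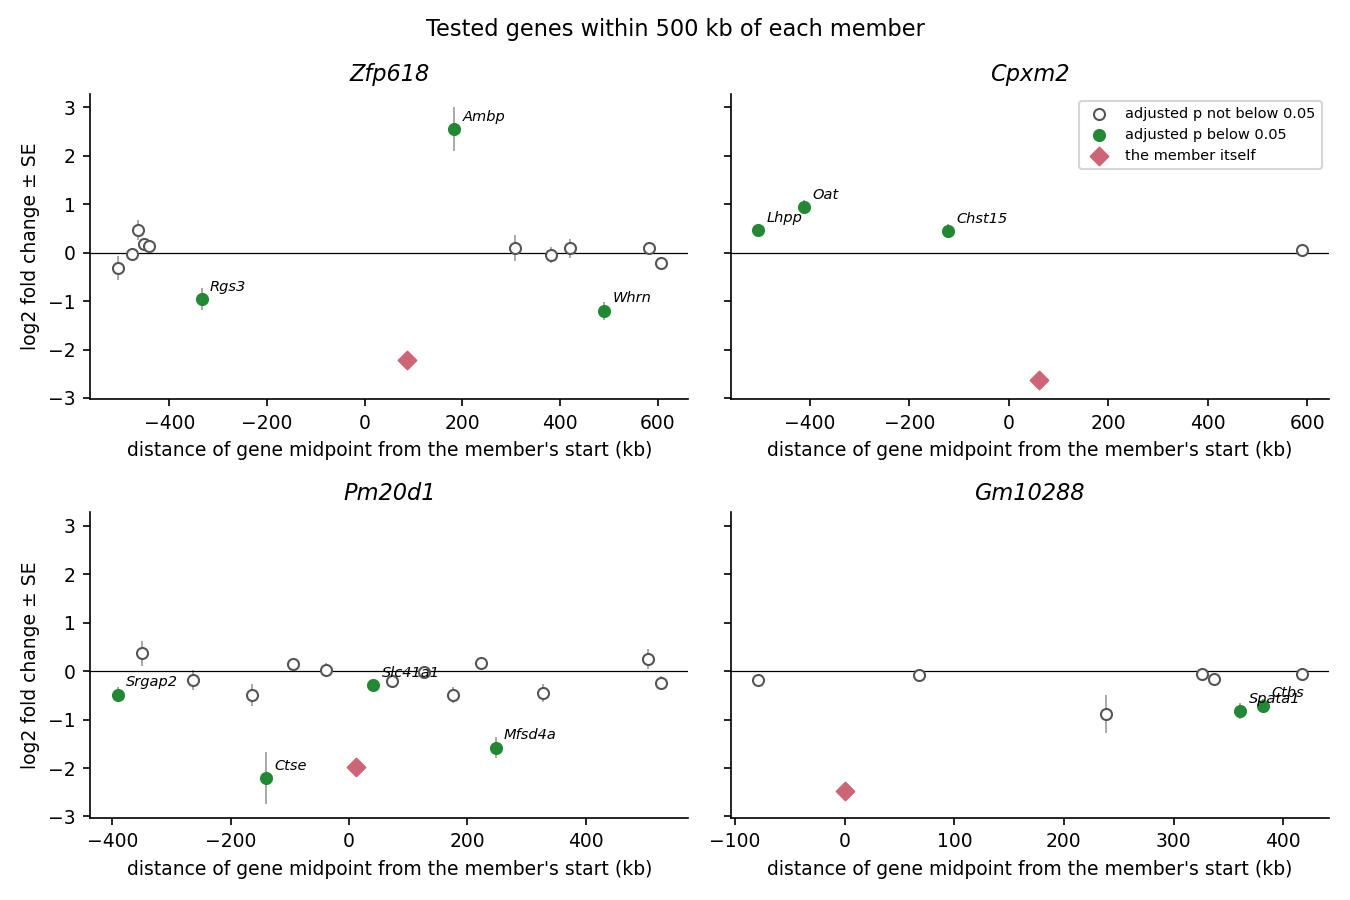
Log2 fold change ± SE (y axis) of tested genes within 500 kb of each of the 4 genes, by the distance of their midpoint from its start in kb (x axis, positive in the direction of transcription). Filled green points passed the adjusted p threshold of 0.05, red diamonds are the 4 genes, and Fgfr2, whose annotated body spans the Cpxm2 window, is not drawn; Ambp beside Zfp618 lies at 2.54 and Ctse beside Pm20d1 at -2.20.

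By gene class, Zfp618 had the lowest log2 fold change of 333 tested genes whose symbol starts with Zfp and a number. Of the other 332, 57 fell (17.2%) and 8 rose (2.4%), against 12.2% and 11.5% of all tested genes, with a median log2 fold change of -0.18. Without CTR 1, CTR 2 or KO 4 the number called was 42, 43 or 40 in place of 65. Gm10288 had the second lowest log2 fold change of 1402 tested processed pseudogenes and the 113th highest CTR level. Of the other 1401, 64 fell (4.6%) and 51 rose (3.6%), with a median level of 5.17 CPM against 10.6 CPM for the Zfp genes. Without CTR 2, CTR 3 or KO 4 the number called was 70, 68 or 64 in place of 115. The ranks of Zfp618 and Gm10288 by fold change in their classes come from the values that chose these genes.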

How the data were processed

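RNA from the tail epidermis of 8 mice was sequenced as stranded poly-A libraries with single 75 bp reads, per the labels' protocols. The values are raw counts per gene as deposited by the authors, with no normalization. Among the names in the submitters' processing notes are, per the labels, STAR 2.4.1d, Bowtie2 2.2.4, featureCounts 1.4.6, Cufflinks 2.1.1 and build GRCm38, with no roles stated; the annotation release and the strand setting of the counting are not given in the sources used here. Identifiers were matched to GENCODE M21 (46488 of 46983).

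The differential test was that of edgeR 4.0.16 under R 4.3.3 (quasi-likelihood test, TMM factors, filterByExpr defaults, all 8 libraries, group as the only term, Benjamini-Hochberg adjustment over 15638 genes, threshold 0.05). The fit was tested on simulated data with far fewer changed genes than were called here and the same spread setting for every gene. Levels are normalised CPM, as mean ± SD. Replicates are separate mice, with numbers in sample order. No pair of libraries from the same group agreed within sampling noise. Near copies of Gm10288 were found with blastn 2.17.0 in the M21 transcripts. The members and gene lists were chosen with earlier results of these data known. Named genes are the 4 members, Ppp1r8, Xist, the parent and near copies of Gm10288, called genes and nearest genes within 500 kb, called or most abundant list genes, and the 5 most alike profiles per member. Alternatives were other normalizations, filters and tests (DESeq2 1.42.0, a robust fit), Xist as a term, and leaving out each library.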

Additional observations from a re-analysis of the deposited data

Results flagged for a closer look

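Of 112 groups of 4 libraries checked for 56 named genes, 2 held a library far from the other 3, fewer than the 1 in 20 that chance gives. Mex3a, one of the profiles nearest to Pm20d1, had 3.97 CPM in KO 4 and 5.81 to 5.98 CPM in the other KO libraries. Whrn, near Zfp618, had 3.67 CPM in KO 1 and 6.67 to 6.78 CPM in the others.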

How the results depend on the processing

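The log2 fold changes of Zfp618, Cpxm2, Pm20d1 and Gm10288 stayed negative in all 16 alternatives run. Without any 1 library they were -2.30 to -2.12, -2.75 to -2.50, -2.07 to -1.86 and -2.58 to -2.36. Rpl11 did not pass the threshold in any of them (-0.40 to 0.02). The largest shift came with Xist as a further term, which left 77 changed genes (45 higher and 32 lower) in place of 3700 (1792 and 1908), 1 of 13 called genes within 500 kb, 0 of 15 relatives and pathway genes, 1 of 65 Zfp genes and 2 of 115 processed pseudogenes. In that fit 36 of 56 named genes lost their call with the same sign, and Cpm, Srgap2 and Tet3 lost theirs with a change of sign (0.04, 0.15 and 0.09). Xist was itself lower in KO (adjusted p = 0.00817), so the term and the group overlap. Gm10036 was at 0.56 there (adjusted p = 0.131, main value 0.92). Without any 1 library, 9 to 17 relatives, 40 to 74 Zfp genes and 64 to 160 processed pseudogenes were called. With a 250 kb window 6 neighbours were called, with fewer genes tested. The other settings kept these counts within 1.5 times. No paired analysis was possible because the groups share no replicate number in the labels. The titles hold a separate number for each mouse, no label says which mice belong together, and a fit on mice with neighbouring numbers was not run. Depth limits what can be said of Tet1, Cpxm1 and Grm4, with few counts in KO.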
